A study of Mus musculus with 4 samples.

Results

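The genes described here encode 36 cytokine and growth factor receptors of blood cells. Earlier results of these data were known when these genes were chosen. They were picked by gene name from the 20207 genes of the deposited table, with no measured value in the rule. They were read in LSK cells of the fetal liver, a fraction sorted as lacking lineage markers and carrying SCA-1 and KIT, in which stem cells and multipotent progenitors of blood are found. The mouse embryos were at E14.5 and were either wild-type or Brpf1-null. BRPF1 is a chromatin-reading scaffold of MYST-family histone acetyltransferases. Each of the 2 samples per genotype was a pool of about 10000 sorted cells from 4 embryos. The labels call the mutant samples Brpf1-null without naming the allele, a Cre driver or the background strain, and wild-type embryos of the same stage served as controls. The tables of the 2 pairs of samples held the same values for every gene, so they were counted as 1 library per genotype, and no difference below has a replicate check or a p-value.

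Cytokine receptors tell a progenitor which growth factors in its niche it can answer. Receptor tyrosine kinases such as KIT, FLT3 and CSF1R dimerize on their ligand and phosphorylate themselves. Many interleukin, colony-stimulating factor and interferon receptors have no kinase of their own and signal through bound JAK kinases, which activate STAT transcription factors. Many of them are built from a ligand-specific chain and a chain shared by several receptors. Loss or gain of a chain can therefore change the response to a single ligand or to a whole family.

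Levels are given in RPKM, reads scaled to transcript length and to sequencing depth, a scale per length on which genes can be compared. Estimated depth was about 23510283 reads in the wild-type and 22130083 reads in the Brpf1-null library. Changes are log2 of the ratio of Brpf1-null to wild-type RPKM after 1 RPKM was added to each, which understates changes of low genes, while folds are ratios of RPKM without that addition. The range after a fold is its 95% Clopper-Pearson counting interval from estimated reads; it covers counting error only and leaves out the spread between pools of embryos. Brpf1 had 2.59 RPKM in wild-type cells and 2.15 RPKM in mutant cells, a fold of 0.833 (0.696 to 0.997); since reads from all exons enter it, loss of a single exon would not show, and it hardly checks the genotype labels. Of the genes of the LSK gate, Ly6a (SCA-1) was at 10.6 and 9.51 RPKM, and Cd34 at 117 and 179 RPKM. Transcripts of cells outside the gate were present too, such as hepatocyte markers with a sum of 2037 and 525 RPKM.

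Receptor transcripts were more often higher than lower in the Brpf1-null library. Of the 36 receptors, 29 averaged 1 RPKM or more; of these, 11 were at least 1.5-fold higher in the Brpf1-null library, where 14.1% of all 9380 genes with such a mean were, and 2 were at least 1.5-fold lower, against 9.42% of all genes. The other 16 lay within 1.5-fold. The 11 higher genes were Csf1r, Csf2rb, Csf2rb2, Il6ra, Il11ra1, Il4ra, Il13ra1, Il21r, Ifnar2, Ifngr2 and Il17ra, and the 2 lower genes were Il7r and Epor. Of the 29, 4 (Insr, Csf2rb2, Il6ra and Il13ra1) were under 1 RPKM in wild-type and passed through their Brpf1-null value, and 3 of those 4 are among the 11. By sign alone, 21 of the 29 had a higher value in Brpf1-null, as did 5072 of the 9380 genes. The median log2 change was 0.45 over the 29 and 0.22 over all 36, against 0.04 over the 9380 genes. Among all genes past 1.5-fold, 60.0% were higher as deposited and 44.4% were higher once the libraries were median-centred, which moved every log2 change by −0.11; 10 receptors were then higher, against 10.2% of all genes, and Il13ra1 no longer was, while 2 were lower, against 12.8%. The change of all genes also followed the GC content of their transcripts (Spearman rho 0.29 across 9258 genes, which are not independent), and the 11 higher receptors had a median GC content of 53.9%, against 49.3% in the 16 within 1.5-fold and 50.3% in all genes. With that trend removed, the counts were again 11 higher, against 12.1% of all genes, and 2 lower, against 9.25%. The counts were smaller under stricter settings. With a pseudocount of 5 RPKM, 6 receptors were higher (5.91% of all genes) and 1 lower (4.19%), since Csf2rb2 (0.34), Il6ra (0.41), Il13ra1 (0.24), Il21r (0.47), Ifngr2 (0.55) and Epor (−0.53) then had log2 changes within 1.5-fold; at a bound of 2-fold, 7 were higher (4.14%) and 1 lower (3.46%). Among the 16 receptors with a mean of 5 RPKM or more, 7 were higher (14.3% of all genes) and 2 lower (8.71%).

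**Figure D1:**
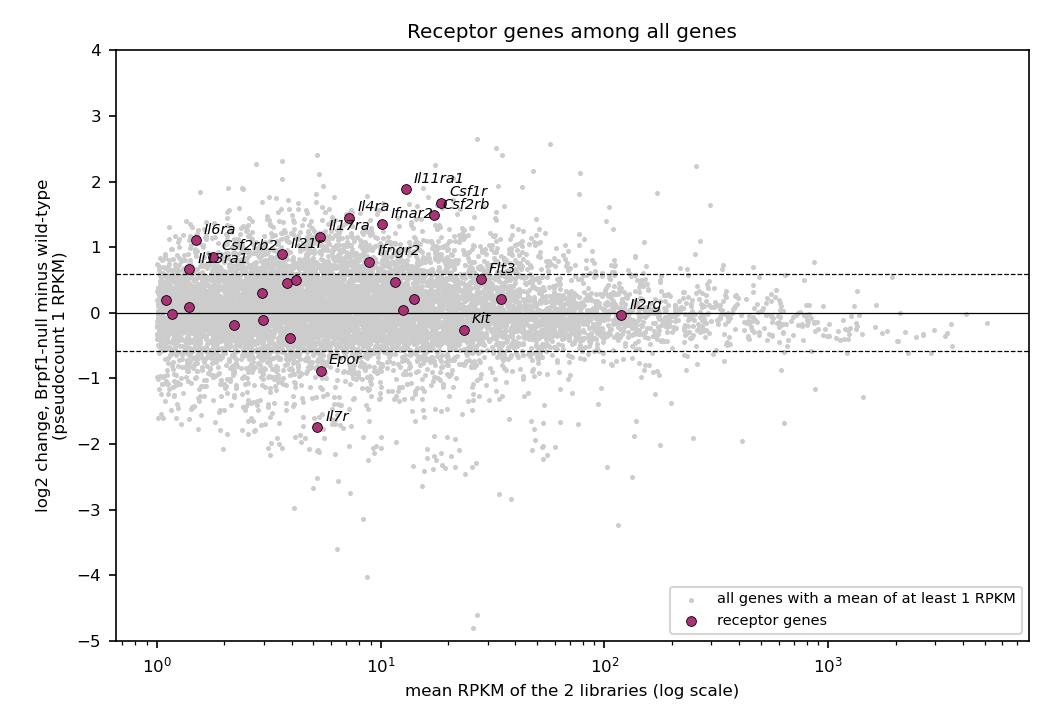
Each grey point is a gene averaging 1 RPKM or more, placed by its mean RPKM over the libraries (log axis) and its log2 change with a pseudocount of 1 RPKM; purple points are the 29 receptors that passed the same filter, and dashed lines mark 1.5-fold. Il11ra1 has the highest change (1.88) and Il7r the lowest (−1.74), while Il2rg, the most abundant receptor, sits at −0.04.

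Levels spanned a wide range in both libraries. In wild-type cells 6 receptors were at 10 RPKM or more (Il2rg, Ifngr1, Kit, Flt3, Ifnar1 and Il10rb), and in Brpf1-null cells 13 were, the added ones being Csf1r, Csf2rb, Il11ra1, Ifnar2, Csf3r, Ifngr2 and Il4ra. Summed over the 36 genes, receptor transcripts came to 321 RPKM in wild-type and 416 RPKM in Brpf1-null. Il2rg alone made up 37.6% and 28.3% of these sums, and without it they were 200 and 299 RPKM. In bulk RNA, a difference in the number of cells that express a receptor cannot be told apart from a difference in RNA per cell.

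**Figure D2:**
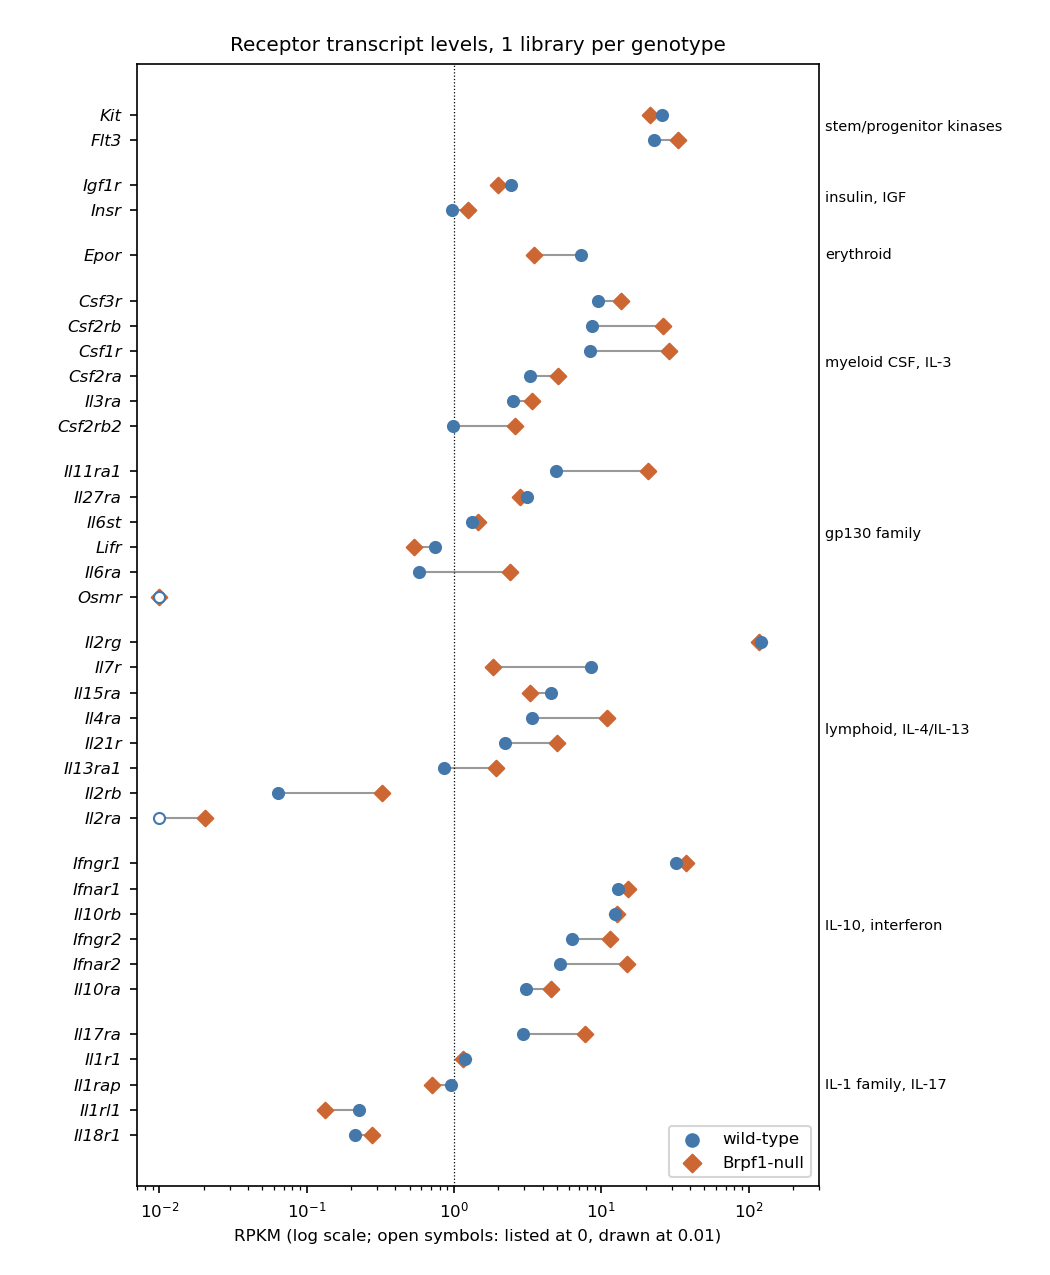
RPKM (log axis) of all 36 receptors in the wild-type (blue circles) and Brpf1-null library (orange diamonds), grouped by role; open symbols stand for values listed at 0 and are drawn at 0.01, and the dotted line marks 1 RPKM. The myeloid group and the interferon group lie to the right in the Brpf1-null library, with Csf1r at 8.31 and 28.8 RPKM and Csf2rb at 8.62 and 26.1 RPKM, while Il7r and Epor lie to the left.

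Kit and Flt3, the receptors of stem and multipotent progenitor cells, both lay within 1.5-fold. Kit, the receptor for stem cell factor and part of the sort gate, was at 25.6 RPKM in wild-type and 21.3 RPKM in Brpf1-null, a fold of 0.832 (0.789 to 0.877). Flt3, the receptor of lymphoid-primed multipotent progenitors, was at 22.9 and 33.1 RPKM, a fold of 1.45 (1.37 to 1.54). The order of this pair thus switched between the libraries, with Kit above Flt3 in wild-type and below it in Brpf1-null. The cells were sorted on KIT protein, and how that bears on the Kit transcript was not tested. The growth factor receptors Igf1r (2.42 and 2.0 RPKM) and Insr (0.963 and 1.24 RPKM), which carry insulin-like growth factor and insulin signals, were low in both libraries, and both lay within 1.5-fold.

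All 6 myeloid growth factor receptors had a higher RPKM in Brpf1-null, as did 5072 of all 9380 genes, and 3 of the 6 were at least 1.5-fold higher (14.1% of all genes), of which Csf2rb2 passed the filter through its Brpf1-null value. Csf1r, the tyrosine kinase receptor that drives macrophage differentiation, was at 8.31 RPKM in wild-type and 28.8 RPKM in Brpf1-null, from about 756 and 2467 reads. Its fold of 3.47 (3.19 to 3.77) was the largest of the group. In the GENCODE annotation 15.1% of the Csf1r exon bases are also exon of Hmgxb3 on the opposite strand, and Hmgxb3 was at 3.01 and 6.15 RPKM; the sources used here do not say whether counting used strand, so reads of the overlap cannot be assigned.

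The beta chain genes of the GM-CSF and IL-3 receptors were higher by more than the alpha chain genes. Csf2rb, which encodes the signalling chain shared by the GM-CSF, IL-3 and IL-5 receptors, was at 8.62 and 26.1 RPKM, a fold of 3.03 (2.81 to 3.26). Its neighbour Csf2rb2, which in mice encodes a second beta chain dedicated to IL-3, was at 0.979 and 2.58 RPKM, a fold of 2.64 (2.07 to 3.41). The ligand-specific chains had smaller folds: Csf2ra (GM-CSF) was at 3.29 and 5.09 RPKM, a fold of 1.54 (1.24 to 1.93) that falls within 1.5-fold once the pseudocount is added, and Il3ra (IL-3) was at 2.52 and 3.36 RPKM, a fold of 1.33 (1.01 to 1.76). The level of Csf2ra relative to Csf2rb accordingly went from 0.382 to 0.195, and that of Il3ra relative to Csf2rb from 0.292 to 0.129. Csf2rb and Csf2rb2 share sequence: 18.4% of the 50-base stretches of the longest Csf2rb transcript also occur in Csf2rb2, so some reads may have been assigned to either copy or dropped. Csf3r, the granulocyte colony-stimulating factor receptor, was at 9.54 and 13.6 RPKM, a fold of 1.43 (1.30 to 1.57).

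Markers of other myeloid cells were read beside this group. Of 7 monocyte and dendritic cell progenitor markers without Csf1r, 5 passed the filter, 4 were at least 1.5-fold higher and 0 lower, and their summed level was 45.0 RPKM in wild-type and 117 RPKM in Brpf1-null; Irf8 was at 9.24 and 32.6 RPKM and Ccr2 at 4.94 and 13.2 RPKM. Of 9 macrophage markers in the table, 8 had a lower value in Brpf1-null, and 1, Cd68, was at least 1.5-fold higher; they summed to 73.3 and 68.8 RPKM. Of 7 neutrophil markers, 6 were lower in Brpf1-null, with sums of 167 and 56.7 RPKM. No marker in these 3 lists was listed at 0 in both libraries. Their part in the receptor values was not tested.

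Upstream sequences of myeloid receptors, of Epor and of Il11ra1 are shown, all of them with a motif match. Il11ra1 has the largest fold of the 29 receptors past the filter. The others are shown because 3 of the 6 myeloid receptors were at least 1.5-fold higher (14.1% of all genes) and Epor was lower. Transcription factors of these lineages also have short, known motifs. The myeloid receptor Il3ra was searched too and held no match. All sequences come from RefSeq promoters on GRCm38.p6, of which 28 of the 36 receptors had at least 1. Csf1r, Csf2rb, Il2rb, Il10ra, Il10rb, Il17ra, Il27ra and Insr had none and were not searched. The windows searched were the 250 bases upstream of each start, on both strands. Motif letters are in capitals. GAGGAAG (PU.1) was found upstream of 7 of the 28 receptors, against 10.6% of all 32851 promoters: Csf2ra, Csf2rb2, Csf3r, Il11ra1, Il15ra, Il18r1 and Kit. The GATA factor motif AGATAA was found for 3, against 9.99% of promoters, namely Epor, Il1rl1 and Il6ra. TGTGGT (RUNX factors) was found for 5 (14.05% of promoters) and TTGCGCA (C/EBP factors) for 0 (1.69%). Receptors with 2 or more listed starts had more than 1 chance to match. No motif contains another. Of the 7 receptors with GAGGAAG, Csf2rb2 and Il11ra1 were at least 1.5-fold higher, Csf2ra, Csf3r, Kit and Il15ra were within 1.5-fold, and Il18r1 was under the filter. The sequences read 5′ to 3′ on the strand of the gene; the capitals of Csf2rb2 (PU.1) and both runs of capitals of Epor (RUNX, then GATA) are motifs on the opposite strand.
Csf2rb2, chr15:78305722-78305971, minus strand: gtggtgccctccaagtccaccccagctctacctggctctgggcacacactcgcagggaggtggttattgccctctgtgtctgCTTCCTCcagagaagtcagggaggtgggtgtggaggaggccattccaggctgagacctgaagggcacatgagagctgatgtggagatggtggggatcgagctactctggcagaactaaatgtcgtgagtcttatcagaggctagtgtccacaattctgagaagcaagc
Epor, chr9:21963577-21963826, minus strand: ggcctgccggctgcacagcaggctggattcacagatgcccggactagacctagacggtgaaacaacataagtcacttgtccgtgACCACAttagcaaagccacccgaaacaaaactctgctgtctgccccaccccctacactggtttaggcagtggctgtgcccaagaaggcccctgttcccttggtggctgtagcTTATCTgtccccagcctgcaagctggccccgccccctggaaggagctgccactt
Csf2ra, 30 bases, chr19:61228419-61228448, minus strand: ttcccaacctgcagatGAGGAAGAGGAAGc
Csf3r, 30 bases, chr4:126024561-126024590, plus strand: cctccttcctgaGAGGAAGgggctgtctat
Il11ra1, 30 bases, chr4:41762236-41762265, plus strand: tgagagagggaaGAGGAAGaggtggaggag
In Csf2ra 2 overlapping copies of the PU.1 motif lie from 14 to 2 bases upstream of the start, in Csf3r 1 copy lies from 86 to 80 bases upstream of the RefSeq start used, and in Epor the GATA motif lies from 54 to 49 bases upstream. In the GENCODE annotation all 30 bases shown for Csf3r, and 11 of the 30 shown for Csf2ra, are exon of the same gene, from transcripts with other starts. A match of letters describes the sequence and shows neither binding nor a cause.

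Epor, the erythropoietin receptor and the only erythroid receptor of the set, was lower in the Brpf1-null library. It was at 7.28 RPKM in wild-type and 3.49 RPKM in Brpf1-null, from about 301 and 136 reads, 2.08-fold lower (1.70 to 2.57). All 8 erythroid markers in the table, among them Klf1 and Tfrc, were at least 1.5-fold lower as well, and their summed level was 613 RPKM in wild-type and 93.8 RPKM in Brpf1-null. The smallest difference among them was that of Tfrc, at 19.1 and 9.77 RPKM. Their part in the Epor value was not tested.

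Among the 8 lymphoid and IL-4/IL-13 receptors, Il7r was the lowest relative to wild-type of all receptors, while 3 others were at least 1.5-fold higher. Of these 3, Il13ra1 passed the filter only through its Brpf1-null value. Of all genes, 14.1% were at least 1.5-fold higher and 9.42% lower. Il7r, the alpha chain of the IL-7 receptor that early lymphoid progenitors need, was at 8.53 RPKM in wild-type and 1.85 RPKM in Brpf1-null, from about 710 and 145 reads. It was 4.61-fold lower (3.85 to 5.55). Its partner Il2rg, the common gamma chain of the IL-2, IL-4, IL-7, IL-9, IL-15 and IL-21 receptors, was at 121 and 118 RPKM, a fold of 0.975 (0.936 to 1.02), so the level of Il7r relative to Il2rg went from 0.0708 to 0.0157. A gene model on the same strand, Gm20489, shares 42.0% of the 50-base stretches of Il2rg, and the Il2rg value may lack reads that fit both.

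B-lineage markers were lower too. Of the 9 in the table, 8 were at least 1.5-fold lower, while neither library had any Pax5; the summed level was 271 RPKM in wild-type and 83.5 RPKM in Brpf1-null, of which Cd79b made up 119 and 77.8 RPKM. Their part in the Il7r value was not tested. Il7, the ligand, was at 0.564 and 0.145 RPKM.

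The higher members of the lymphoid group were Il4ra, Il21r and Il13ra1. Il4ra, the IL-4 receptor alpha chain that pairs with Il2rg or with Il13ra1, was at 3.39 RPKM in wild-type and 11 RPKM in Brpf1-null, a fold of 3.24 (2.90 to 3.63). Il13ra1 was at 0.849 and 1.93 RPKM, a fold of 2.27 (1.71 to 3.03), and passed the filter only through its Brpf1-null value. Its change fell within 1.5-fold after median centring and with a pseudocount of 5 RPKM. Il21r, the next coding gene to Il4ra on chromosome 7, was at 2.22 and 5.01 RPKM, a fold of 2.25 (1.83 to 2.81). Both chains of the type II IL-4 receptor and both neighbours on chromosome 7 were therefore higher in the same library. Il15ra, which presents IL-15, was at 4.57 and 3.29 RPKM, a fold of 0.719 (0.559 to 0.916). Il2rb, the IL-2 and IL-15 receptor beta chain, stayed under the filter at 0.0638 and 0.322 RPKM, from about 6 and 30 reads, and Il2ra was listed at 0 in wild-type and at 0.0203 RPKM in Brpf1-null. Of 9 markers of T, NK and innate lymphoid cells, 4 passed the filter; Cd4, Klrd1 and Id2 were at least 1.5-fold higher, Gata3 was lower, and Cd3e and Ncr1 were listed at 0 in both libraries. Their summed level was 56.6 and 115 RPKM, of which Id2 made up 50.1 and 103 RPKM. Their part in the receptor values was not tested.

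Of the 6 genes of the gp130 family, 4 passed the filter, Il6ra only through its Brpf1-null value. Il6ra and Il11ra1 were at least 1.5-fold higher (14.1% of all genes). Il27ra and the shared chain Il6st were within 1.5-fold. Il6st, which encodes gp130 itself, was at 1.33 and 1.46 RPKM, a fold of 1.10 (0.929 to 1.31). Il6ra, the IL-6 binding chain, was at 0.582 RPKM in wild-type and 2.40 RPKM in Brpf1-null, from about 82 and 318 reads, a fold of 4.12 (3.22 to 5.32). Il6ra was thus below its partner in wild-type and above it in Brpf1-null, with a ratio of 0.439 and then 1.64.

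Il11ra1, the IL-11 binding chain, was at 4.94 RPKM in wild-type and 20.9 RPKM in Brpf1-null, from about 213 and 849 reads. Its fold of 4.23 (3.64 to 4.94) was the largest of the 29 receptors. This locus is duplicated in the mouse genome: 46.5% of the 50-base stretches of Il11ra1 also occur in Gm13305, and both Gm13305 and Il11ra2 were listed at 0 in both libraries. The value can therefore hold reads of copies, or lack reads that fit several of them. Il27ra, the IL-27 receptor chain, was at 3.12 and 2.81 RPKM, Lifr at 0.743 and 0.536 RPKM, and Osmr, the oncostatin M receptor, was listed at 0 in both libraries.

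Of the IL-10 and interferon receptors, all 6 had a higher value in Brpf1-null as deposited, as did 5072 of all 9380 genes. Il10rb turned lower after median centring. Of the 6, Ifnar2 and Ifngr2 were at least 1.5-fold higher (14.1% of all genes). Ifnar2, the high-affinity chain of the type I interferon receptor, was at 5.26 and 15.0 RPKM, a fold of 2.86 (2.48 to 3.32), while its partner Ifnar1 was at 12.96 and 15.2 RPKM, a fold of 1.17 (1.08 to 1.27). The Ifnar1 to Ifnar2 ratio went from 2.46 to 1.01, from unequal levels in wild-type to like levels in Brpf1-null. Ifngr2, the signalling chain of the interferon gamma receptor, was at 6.29 and 11.5 RPKM, a fold of 1.83 (1.65 to 2.04), and its ligand-binding partner Ifngr1 was at 31.9 and 37.3 RPKM, a fold of 1.17 (1.09 to 1.25).

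Il10rb, shared by the IL-10, IL-22 and type III interferon receptors, was at 12.3 and 12.7 RPKM, and Il10ra was at 3.06 and 4.56 RPKM, a fold of 1.49 (1.26 to 1.76). Ifnar2, Il10rb, Ifnar1 and Ifngr2 follow each other on chromosome 16 with no other coding gene between them in the RefSeq order, and their log2 changes in that order were 1.36, 0.04, 0.22 and 0.78. The 2 higher genes are thus the outer ones of the run. A readthrough model, Gm21970, shares 8.87% of the 50-base stretches of Ifnar2 and 29.0% of those of Il10rb. The change of Il10rb turned from 0.04 to −0.07 after median centring.

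The IL-1 family receptors among the 36 were low, and the IL-17 receptor was higher. Il17ra, the common chain of the IL-17 receptors, was at 2.92 RPKM in wild-type and 7.76 RPKM in Brpf1-null, a fold of 2.66 (2.40 to 2.95). Il1r1 was at 1.19 and 1.15 RPKM, with an interval that includes 1 (0.762 to 1.23), and its accessory chain Il1rap was at 0.953 and 0.708 RPKM. Il1rl1, the IL-33 receptor of mast cells and innate lymphoid cells, was at 0.225 and 0.133 RPKM from about 14 and 8 reads, and Il18r1 at 0.212 and 0.276 RPKM from about 10 and 12 reads. A difference was not detectable for either at this depth. Mast cell and basophil markers (sums of 13.9 and 12.3 RPKM) went both ways: of the 4 kept, Prss34 and Hdc were at least 1.5-fold higher and Cpa3 lower, while Fcer1a and Cma1 were listed at 0 in both libraries.

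**Figure D3:**
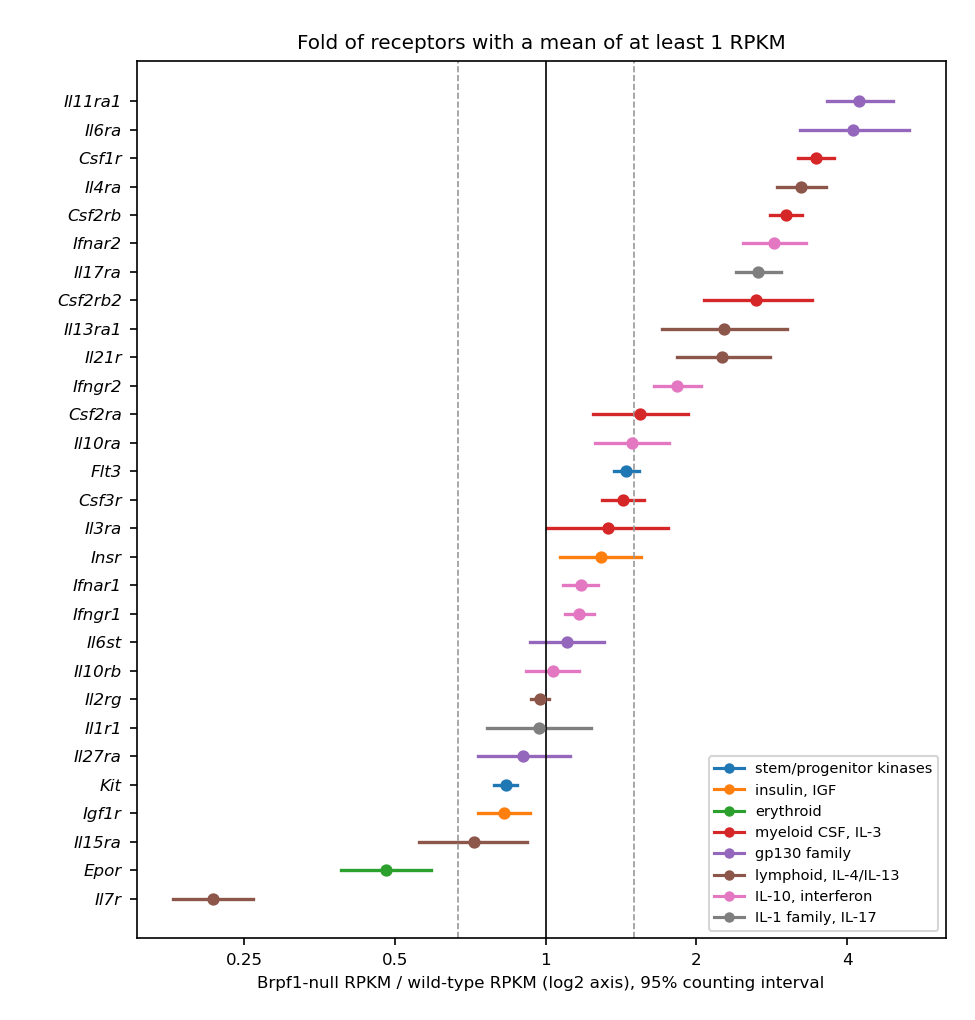
Fold of Brpf1-null over wild-type RPKM (log2 axis) for the 29 receptors averaging 1 RPKM or more. Bars give the 95% counting interval and colours the role of the receptor. Dashed lines mark 1.5-fold without the pseudocount and the solid line 1. Csf2ra (1.54) lies past the upper dashed line but counts as within 1.5-fold, since the counts use the pseudocount. Il11ra1 (4.23) and Il6ra (4.12) are at the top and Il7r (0.217) at the bottom. The intervals cover counting error only and leave out the spread between pools of embryos.

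Read in pairs, the chains of some receptors differed in fold and those of others did not. In the receptors for GM-CSF, IL-3 and both interferon types the higher gene was the shared chain Csf2rb or the less abundant chain (Ifnar2, Ifngr2), and in those for IL-6, IL-11 and IL-4 it was the ligand-specific chain (Il6ra, Il11ra1, Il4ra) beside a shared chain within 1.5-fold (Il6st, Il2rg). In the IL-7 receptor the specific chain was lower beside the same Il2rg. Both chains of the type II IL-4 receptor (Il4ra and Il13ra1) were higher, and both chains of the IL-27 receptor (Il27ra and Il6st) were within 1.5-fold. Of the chains named here, Il6ra and Il13ra1 passed the filter only through their Brpf1-null values. These descriptions rest on transcript values and do not show surface receptor.

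Genes that act with the receptors were read from lists chosen by function. Of 38 other cytokine and growth factor receptors in the table, 13 passed the filter, with a median log2 change of 0.12. Of the 13, 1 was at least 1.5-fold higher (14.1% of all genes) and 0 were lower (9.42%). The higher gene was Tie1, an endothelial and stem cell kinase, at 5.37 and 8.70 RPKM. Il1r2, an IL-1 decoy receptor, was at 7.05 and 10.9 RPKM, and Il18rap, the IL-18 accessory chain, at 1.69 and 0.889 RPKM. Without the pseudocount Il1r2 was 1.54-fold higher and Il18rap 1.90-fold lower, and both fell within 1.5-fold once it was added. Of 8 endothelial markers, which include Tie1, 4 passed the filter, 1 was higher and 1 lower, with sums of 30.4 and 25.6 RPKM; their part in the Tie1 value was not tested.

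JAK kinases and STAT factors went both ways, with 5 of 11 at least 1.5-fold higher (14.1% of all genes), 2 lower (9.42%) and a median of 0.51. Stat5a, a main effector of the KIT, EPO, IL-3 and GM-CSF signals, was at 1.73 RPKM in wild-type and 8.56 RPKM in Brpf1-null, a fold of 4.95 (4.15 to 5.94), and its paralog Stat5b was at 2.93 and 8.29 RPKM, a fold of 2.83 (2.50 to 3.20). Tyk2, the kinase bound to Ifnar1, was at 1.65 and 4.30 RPKM, a fold of 2.61 (2.20 to 3.11). Stat4 was 2.02-fold lower (1.79 to 2.28). Jak3, which binds the common gamma chain and is named after its value was seen, was at 3.04 and 1.29 RPKM, 2.35-fold lower (1.89 to 2.94).

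Of 17 kept adaptors and proximal kinases, 7 were at least 1.5-fold higher (14.1% of all genes) and 0 lower (9.42%), with a median of 0.48. Without the pseudocount, Gab1 (fold 0.570) and Irak2 (0.566) were also past 1.5-fold lower, and Gab3 (1.504) and Lyn (1.504) past 1.5-fold higher. Grb2, which links receptors to RAS, reached 36.8 RPKM in Brpf1-null, a fold of 2.54 (2.35 to 2.75), and Plcg2, a phospholipase downstream of immune receptors, at 19.5 and 39.2 RPKM. Pik3r5, a regulator of PI3K gamma, was at 0.872 and 3.41 RPKM. Like 3 of the 11 higher receptors, Pik3r5 passed the filter only through its Brpf1-null value. Among 20 kept feedback and target genes, 3 were at least 1.5-fold higher (14.1% of all genes) and 2 lower (9.42%), with a median of 0.03. Both counts were near the shares of all genes. Socs2, an inhibitor induced by STAT5, was at 5.33 RPKM in wild-type and 1.18 RPKM in Brpf1-null, 4.50-fold lower (3.37 to 6.09). Socs2 and Stat5a therefore differed in opposite directions. The inhibitors Sh2b3 (LNK; 3.10 and 6.98 RPKM) and Ptpn6 (SHP-1; 59.8 and 105 RPKM) were at least 1.5-fold higher, and so was the kinase gene Pim3 (2.18 and 4.22 RPKM).

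**Figure D4:**
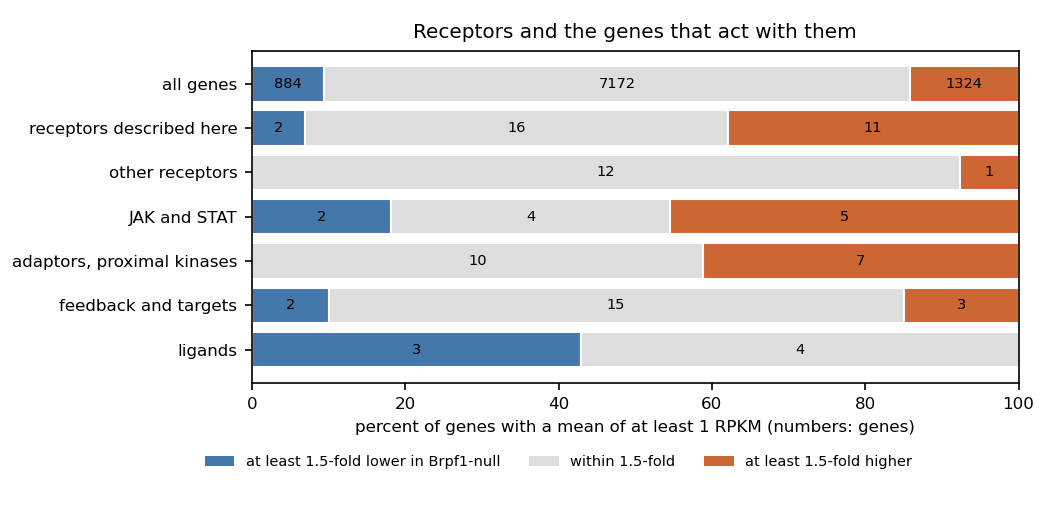
Percent of each list, over genes averaging 1 RPKM or more, that were at least 1.5-fold lower (blue), within 1.5-fold (grey) or at least 1.5-fold higher (orange) in the Brpf1-null library, with gene numbers in the bars. Drawn are the receptors described here (11 of 29 higher), JAK and STAT genes (5 of 11) and adaptors (7 of 17). All genes (1324 of 9380) and the ligands (3 of 7 lower and 0 higher) are drawn beside them. Some genes passed the filter only through the library where they were high. These were Csf2rb2, Il6ra and Il13ra1 among the higher receptors, Pik3r5 among the higher adaptors and Igf1 among the lower ligands.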

How the data were processed

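RNA of sorted LSK cells was sequenced from oligo-dT-primed libraries, with pair 1 on 2 lanes and pair 2 on 6, per the labels. Reads were aligned with TopHat to mm9, per the submitters' processing notes; the sources used here do not name the counting program, annotation or strand setting. Deposited by the authors were RPKM (pair 1) and FPKM (pair 2) per gene, a fold (ratio) with wild-type as numerator and its log2, per the file headers. The tables held the same values (0 of 20207 wild-type and 0 Brpf1-null values differed), so the planned limma test could not be run, and the deposited ratios, which run opposite to the direction used here, were not used.

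Log2 changes used a pseudocount of 1 RPKM and a minimum mean of 1 RPKM (10827 genes removed). Symbols were matched to GENCODE M21 transcripts for 98.1% of genes (17518 directly, 2302 through RefSeq synonyms). Library sizes were read from the spacing of low values: with them, 65.9% of 1251 wild-type and 68.2% of 1289 Brpf1-null values of up to 12 reads, in genes with 1 RefSeq transcript length, came out within 0.1 of a whole read, against 26.6% and 29.8% with sizes raised by 5%. Read numbers are approximate. Intervals treat reads as independent molecules, which PCR copies are not. Recovery of library sizes, and coverage of the counting intervals at known read numbers and library sizes, were checked on simulated data. The other steps were not checked in this way. GENCODE and RefSeq are on GRCm38, not mm9, and served for lengths, GC content, gene order and the promoters printed. Python 3.11.15, scipy 1.17.1 and statsmodels 0.14.6 were used. All 36 receptors are named; of each other list the (at most) 4 kept genes with the largest absolute log2 change are described (a few are not reported here), and marker genes, Il7, Ly6a, Hmgxb3, Gm13305, Il11ra2 and Jak3 were named outside that rule, after their values were seen. Receptors and lists were chosen with earlier results of these data known.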

Additional observations from a re-analysis of the deposited data

How the results depend on the processing

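No paired analysis was possible because the tables of the 2 pairs hold the same values, and leaving out a pair could not be run for the same reason. Of the 29 receptors averaging 1 RPKM or more, 26 kept the sign of their change and 22 their side of 1.5-fold under all of 5 other settings (median centring, quantile normalization, removal of the GC trend, pseudocounts of 0.1 and 5 RPKM); Il6st, Il10rb and Il1r1 changed sign. The number of receptors at least 1.5-fold higher was 11 as reported, 6 with a pseudocount of 5 RPKM, 7 when the minimum mean was 5 RPKM and 7 at a bound of 2-fold, and the number lower was 2 as reported, 1 with a pseudocount of 5 RPKM and 1 at 2-fold. Over all genes the same 3 settings gave 554, 794 and 388 higher in place of 1324, and 393, 483 and 325 lower in place of 884. The larger pseudocount shrinks changes of low genes by its construction, and the stricter filter left 16 receptors. The median change of the receptors ran from 0.22 with no filter to 0.51 with a pseudocount of 0.1 RPKM. The macrophage markers' median turned from −0.67 to 0.037 when the minimum mean was 5 RPKM, which left 2 of them. At this depth Il2ra, Il2rb, Il1rl1 and Il18r1 rest on at most 30 reads in each library.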

Other observations

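Transcripts of the receptors' own ligands were mostly low or listed at 0 in both libraries. Of 35 ligand genes, 7 passed the filter. Of these 7, 3 were at least 1.5-fold lower in Brpf1-null (9.42% of all genes) and 0 higher (14.1%). Of the 35, 15 were listed at 0 in both libraries, among them Epo, Il3, Csf3 and Il34. Igf1 was at 1.83 RPKM in wild-type and 0.373 RPKM in Brpf1-null, 4.91-fold lower (2.67 to 10.8), and passed the filter through its wild-type value. Igf2, the fetal growth factor, was at 6.09 and 2.74 RPKM, a fold of 0.450 (0.384 to 0.525). Flt3l, the ligand of FLT3, was at 3.93 and 1.84 RPKM, a fold of 0.468 (0.319 to 0.682), beside a Flt3 fold of 1.45. Il15 was at 7.24 and 5.64 RPKM, a fold of 0.779 (0.629 to 0.961). All 10 hepatocyte markers were at least 1.5-fold lower, with summed levels of 2037 and 525 RPKM, and their part in the Igf1 and Igf2 values was not tested.

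Of the proteins that release or bind receptors and ligands, Il18bp, the IL-18 decoy, was at 3.56 and 1.35 RPKM, a fold of 0.379 (0.270 to 0.537). The shedding protease genes went in opposite directions: Adam17 was at 4.198 and 6.98 RPKM, a fold of 1.66 (1.47 to 1.88), and Adam10 at 16.8 and 11.9 RPKM, a fold of 0.710 (0.660 to 0.765).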
